A study of Mus musculus with 8 samples.

Results

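The colony-stimulating factors and their receptors were followed through single cells of mouse lung tumors. The 10 genes are the ligands Csf1, Csf2, Csf3 and Il34 and the receptor genes Csf1r, Csf2ra, Csf2rb, Csf2rb2, Csf3r and Flt3. They were found by symbol in the deposited count tables, where all 10 of them are present among 27923 genes.

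The tumors came from KP mice, whose Cre-dependent alleles include p53 fl/fl. The mice were chimeras made from C57BL/6 KP embryonic stem cells in albino C57BL/6 blastocysts, so host-derived cells can lack the KP alleles. Tumors were started at 12 weeks of age by instilling into the trachea an adenovirus with Cre under the SPC promoter, which is active in alveolar type II cells, and were dissected 16 weeks later. Tumor 1 and Tumor 2 are 1 mouse each, one a male and the other a female, so that tumor, mouse and sex cannot be told apart. In both groups of cells, slices were stained with photocaged calcein NVOC. Light uncaged the dye at the rim, and the cells sorted for it form the Healthy/Tumor Border, with 1 library per tumor (called Border here). Cells that were not photoactivated form the Whole Tumor (Whole), with 3 technical Seq-Well arrays per tumor. The p-values therefore measure the spread between technical arrays and not between mice. Border and Whole cells also differ in exposure to light and in sorting for the uncaged dye. Location cannot be told apart from these in any comparison of Border with Whole.

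Csf1 and Il34 are the ligands of Csf1r, the receptor tyrosine kinase on which most macrophages depend. Csf2 (GM-CSF) binds a private alpha chain, Csf2ra, paired with the beta common chain Csf2rb, and in the lung this pathway is needed for alveolar macrophages. Mice carry a second beta chain, Csf2rb2, that works with the interleukin-3 receptor. Csf3 (G-CSF) acts through Csf3r on the neutrophil lineage, and Flt3 is the receptor through which dendritic cells and their precursors are expanded.

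The 8 libraries held 3894 barcodes with at least 200 genes, 328 to 620 per library, and 374369 to 2019162 UMIs per library. Whole 2 array 2 was the shallowest, with a median of 675.5 UMIs per barcode against 1654 to 2525.5 elsewhere. Barcodes were gated into classes by lists of marker genes that hold none of the 10 genes, and 2235 of them were assigned. The neutrophil-like class was by far the largest with 1249 barcodes, and all 10 of its markers (S100a8, S100a9, Cxcr2, Retnlg and others) were found in at least 10% of them. It was followed by 226 C1q+ macrophage-like, 141 Krt+ tumor-like, 131 cavity macrophage-like, 120 B-like and 96 alveolar macrophage-like barcodes. The other classes hold 1 to 54 barcodes each. The C1q+ class is a Tumor 2 class, with 207 of its barcodes there and 119 in Border 2 alone, and the cavity class is a Tumor 1 class, with 122 barcodes in the Whole arrays of that tumor. Inside the tables, the names of cells from Tumor 1 are numbered as Tumor 2 and the reverse, and the sample labels were followed throughout. Under these labels, the deposited barcodes of each tumor and region are as many as the cells the study gives for it.

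Csf2rb and Csf2rb2 are near-identical neighbors on mouse chromosome 15, so their counts need a check before they are read. In GRCm38, the build named by the submitters as mm10, Csf2rb lies at chr15:78325752-78353847 on the plus strand and Csf2rb2 at chr15:78282507-78305721 on the minus strand. Their coding sequences are identical at 2503 of 2628 aligned bases (95.2%). The last 120 aligned coding bases of both genes are shown, 5′ to 3′, because they let the closeness of the pair be seen, with the 6 bases that differ in capitals.
Csf2rb: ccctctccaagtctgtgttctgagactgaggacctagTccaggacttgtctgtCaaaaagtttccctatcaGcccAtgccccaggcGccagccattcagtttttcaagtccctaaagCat
Csf2rb2: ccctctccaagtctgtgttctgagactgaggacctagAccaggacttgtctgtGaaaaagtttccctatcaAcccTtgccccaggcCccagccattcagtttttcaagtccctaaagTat
A 50-base read taken from the coding part of Csf2rb also fits Csf2rb2 without a mismatch in 26.2% of its possible positions. Seq-Well reads come from the 3′ ends of transcripts, however, and in the last 500 bases of the transcripts 0 of 451 possible reads are shared. How the authors treated reads with several hits is not given in the sources used here, so that a part of the reads of either gene may be missing.

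Levels are given as UMIs per 1000000 UMIs of a class (CPM), with exact 95% Poisson intervals over the summed UMIs, which cover counting error only. In such sums, fewer expressing cells and less RNA per cell cannot be told apart, so the share of barcodes with a UMI is given as well. Because free RNA also gives UMIs, that share is set beside the B-like class, which should lack all of these genes but has a like depth (a median of 2154.5 UMIs, against 2206 in the neutrophil-like class). Of the B-like barcodes, 105 are from Tumor 2 and only 15 from Tumor 1, so the background of Tumor 1 is poorly measured. A thinned share is the one expected if every barcode had 1000 UMIs, leaving out shallower ones.

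Ligands. Csf1 was the only one of the 4 ligands with more than 46 UMIs, and neutrophil-like barcodes held most of it. They contained 1882 of the 2520 Csf1 UMIs, or 74.7%, while holding 32.3% of all UMIs. Csf1 stood at 602 CPM (575 to 630) in this class, and 445 of 1249 barcodes had a UMI (35.6%, thinned 27.4%), against 13.3 CPM and 2.5% (thinned 1.11%) in B-like barcodes. The B-like positives were 0 of 15 barcodes in Tumor 1 and 3 of 105 in Tumor 2. Csf1 lies at chr3:107741048-107760469 on the minus strand.

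Summed over all libraries, stromal classes came next for Csf1. Endothelial-like barcodes had 210 CPM (143 to 296, from 32 UMIs in 10 of 38 barcodes) and fibroblast-like barcodes 166 CPM (102 to 257, from 20 UMIs in 9 of 28), and these neighbors do not differ beyond their intervals. Of the 32 endothelial-like UMIs, 18 were in Whole 2 array 1, with 17 in a single barcode. In that array the class, with 5 barcodes, stood at 1005 CPM (596 to 1588), above the 276 CPM of neutrophil-like barcodes, and without the array it stood at 104 CPM (56.9 to 174). In Tumor 2 as a whole, endothelial-like barcodes had 382 CPM (247 to 564) and neutrophil-like barcodes 336 CPM (301 to 374). Without that array these were 147 CPM (59.2 to 303) and 351 CPM (312 to 395), and in Tumor 1 they were 80.4 and 730 CPM. C1q+ macrophage-like barcodes had 40.0 CPM (29.2 to 53.5), but 42 of their 45 Csf1 UMIs came from 9 barcodes of Border 2. No Csf1 UMI was seen in T-like, NK-like or plasmacytoid dendritic-like barcodes, and a count of 0 allows up to 40.8 CPM in the first and 61.2 and 61.1 CPM in the other two.

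Within the neutrophil-like class, Csf1 was concentrated in few barcodes. The mean was 4.23 UMIs per positive barcode, the highest barcode had 46, and the 44 barcodes with at least 10 UMIs held 38.8% of the class's Csf1. Other genes were concentrated as well. The 125 barcodes with the most UMIs of a gene held 67.3% of Csf1, 72.4% of Csf1r and 55.9% of Csf2rb2. They held 50.9% of Csf2rb, 44.9% of Csf2ra and 35.2% of Csf3r. The class was divided by which of a pair of short marker lists led, into 664 barcodes of a Retnlg Hdc type, 372 of a Siglec-F type and 213 in which neither led. Retnlg, Hdc and Il1r2 of the first list are also markers of the class, and no Siglec-F type marker is. The gate can therefore favor the Retnlg Hdc type. Of the Retnlg Hdc type 470 barcodes are from Tumor 2, and of the Siglec-F type only 15, so the types are compared within Tumor 1. In its Whole arrays Csf1 stood at 928 ± 313 CPM (SD, n = 3 arrays) in the Retnlg Hdc type, 700 ± 155 CPM in the Siglec-F type and 1035 ± 305 CPM where neither led, and the ranges of the arrays overlap between the types. In Border 1 it was 565, 696 and 633 CPM, with overlapping intervals.

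**Figure D1:**
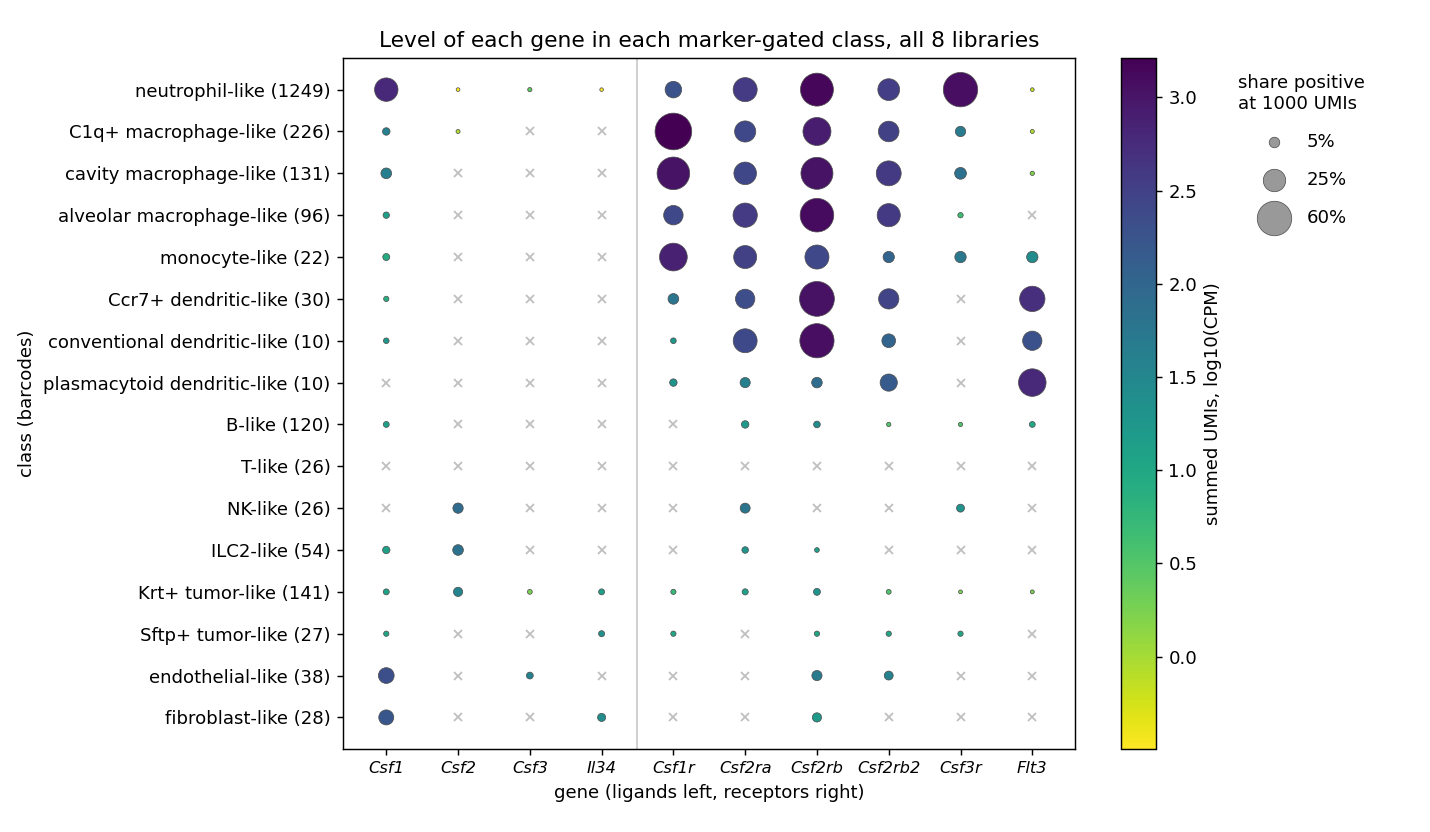
Level of each of the 10 genes (columns) in each marker-gated class (rows, with its barcodes), summed over all 8 libraries. Color gives log10(CPM), the size of a point gives the thinned share of positive barcodes, and a cross marks a count of 0. Csf1 and Csf3r are highest in the neutrophil-like row (602 and 1186 CPM), Csf1r in the C1q+ macrophage-like row (1622 CPM) and Flt3 in the plasmacytoid and Ccr7+ dendritic-like rows (611 and 511 CPM).

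Csf2, the ligand of the GM-CSF receptor, was rare and came from other cells. Of 46 UMIs, 20 were in Krt+ tumor-like barcodes, 10 in ILC2-like, 4 in NK-like and 10 in unassigned barcodes. The 20 tumor-like UMIs came from 11 of 141 barcodes (7.80%, thinned 3.66%) and gave 35.2 CPM (21.5 to 54.4). By library they were 5, 12 and 3 in the Whole arrays of Tumor 1, and 0 in the 4 other libraries with such barcodes, which hold only 15 of them. The ILC2-like UMIs came from 5 of 54 barcodes at 64.2 CPM (30.8 to 118). All 10 of them were in Tumor 2 (27 barcodes, 157 CPM), and the 27 barcodes of Tumor 1 had none, which allows up to 32.5 CPM. In NK-like barcodes 4 UMIs in 2 barcodes of 1 array gave 81.6 CPM (22.2 to 209). The neutrophil-like class had 1 Csf2 UMI in 1249 barcodes, and the B-like class had none, which allows up to 9.97 CPM. Csf2 lies at chr11:54247271-54249667, and an antisense gene, Gm12223, covers 2068 of its bases. Whether reads were counted by strand is not given in the sources used here, so reads of the pair may not be separated.

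Csf3 and Il34 were close to the limit of detection. Csf3 (chr11:98701263-98703629), the ligand of the neutrophil receptor Csf3r, had 22 UMIs in 12 barcodes. Endothelial-like barcodes held 6 of them (39.3 CPM, 14.4 to 85.6), all in 2 barcodes of Tumor 1. The neutrophil-like class held 8 in 5 barcodes, with 7 of them in Whole 2 array 1 and 1 in Whole 2 array 2. Il34 (chr8:110741829-110805924), the other ligand of Csf1r, had 20 UMIs, each in a barcode of its own. Krt+ tumor-like barcodes held 8 of these (14.1 CPM, 6.08 to 27.8), fibroblast-like 3 and Sftp+ tumor-like 2, and none fell in a macrophage-like class. Il34 overlaps the antisense genes Gm15894 and Gm15895.

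Receptors. Csf1r was highest in macrophages and low, but above the pooled B-like background, in neutrophil-like barcodes. It stood at 1622 CPM (1549 to 1699) in the C1q+ macrophage-like class, where 204 of 226 barcodes had a UMI (90.3%, thinned 68.1%, at a median of 4164 UMIs). Cavity macrophage-like barcodes followed at 1074 CPM (993 to 1161), monocyte-like at 731 CPM (582 to 906), alveolar macrophage-like at 259 CPM (213 to 312) and neutrophil-like at 187 CPM (172 to 202). These are levels over pooled libraries. In Border 2 alveolar barcodes had 340 CPM (208 to 526) and neutrophil-like barcodes 105 CPM (64.2 to 162), with intervals apart. In Whole 2 they had 234 ± 35.2 and 189 ± 63.3 CPM (SD, n = 3 arrays), with overlapping ranges, and the neutrophil-like level was the higher one in array 1 (261 against 236 CPM). Neutrophil-like barcodes were positive in 22.9% (thinned 13.4%), while 0 of 120 B-like barcodes had a Csf1r UMI, which allows a level of up to 9.97 CPM. Only 15 of these B-like barcodes were from Tumor 1, too few to measure the background of that tumor closely.

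The C1q+ level of Csf1r was at least 1163 CPM in each library with at least 10 such barcodes. It was 1675 CPM in Whole 1 array 2, 1677 in Border 2 and 1661, 1163 and 1565 in the arrays of Whole 2. The lowest of these is the shallow array, with 55 UMIs. The cavity class had 1074, 1050 and 1255 CPM in the arrays of Whole 1. Of all Csf1r UMIs, 46.5% were in C1q+ macrophage-like, 16.3% in cavity macrophage-like and 14.8% in neutrophil-like barcodes. This makeup followed the tumor, since C1q+ barcodes held 85.3% of the Csf1r UMIs of Border 2 and 53.3% to 54.9% in the arrays of Whole 2, whereas cavity barcodes held 32.7% to 48.6% in the arrays of Whole 1.

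The chains of the GM-CSF receptor were found throughout the myeloid classes. Csf2ra (chr19:61223957-61228429), the alpha chain, stood at 364 CPM in neutrophil-like, 363 in alveolar macrophage-like, 308 in monocyte-like, 265 in cavity macrophage-like and 252 CPM in C1q+ macrophage-like barcodes. Neighbors in this order have overlapping intervals. Csf2rb, the common beta chain, stood at 1419 CPM (1377 to 1461) in neutrophil-like, 1265 in alveolar macrophage-like, 1199 in conventional dendritic-like, 1097 in Ccr7+ dendritic-like, 1054 in cavity macrophage-like, 811 in C1q+ macrophage-like and 255 CPM in monocyte-like barcodes. This order is one over pooled libraries and turns with the library. In Tumor 1, neutrophil-like barcodes had 1734 CPM (1678 to 1791) of Csf2rb, the C1q+ class 1724 and the cavity class 986 CPM. This C1q+ value comes from 208 UMIs in 13 of 19 barcodes, and 188 of the UMIs were in Whole 1 array 2. In Tumor 2, which holds 95 of the 96 alveolar barcodes, the order also turned with the region. In Border 2 the alveolar class had 613 CPM (429 to 848), from 36 UMIs in 7 of 12 barcodes. Neutrophil-like barcodes had 1656 CPM (1478 to 1850) there, above that class and above the C1q+ class at 665 CPM (605 to 731). In the Whole arrays of Tumor 2 they had 569 ± 85.5 CPM (SD, n = 3 arrays), below the alveolar class at 1299 ± 349 and the C1q+ class at 879 ± 319 CPM, and in no array were they above either class. Without Whole 1 array 2 the pooled neutrophil-like level is 1172 CPM, below the 1265 CPM of the alveolar class. B-like barcodes had 26.6 CPM of Csf2rb and 16.6 CPM of Csf2ra, and 5 of 120 were positive for each gene (4.17%), against 66.1% of neutrophil-like barcodes for Csf2rb and 47.5% for Csf2ra. For Csf2rb, B-like barcodes were positive in 4 of 15 in Tumor 1 (26.7%, thinned 6.27%, 73.2 CPM) and in 1 of 105 in Tumor 2 (0.952%, 12.9 CPM), against 79.3% (thinned 63.1%) and 47.8% of neutrophil-like barcodes. A single mast or basophil-like barcode had 5 Csf2rb and 6 Csf2rb2 UMIs among its 1209.

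The balance of the beta chains was also compared between myeloid classes. Csf2rb2 made up 19.5% (exact 95% interval 18.5 to 20.6) of the UMIs of the pair in neutrophil-like barcodes, and 27.9% (25.4 to 30.5) in C1q+ macrophage-like and 27.5% (24.5 to 30.6) in cavity macrophage-like barcodes. The alveolar macrophage-like share was 23.4% (20.3 to 26.7). These intervals take each UMI as independent and cover counting error only, so intervals apart are no test of a difference between classes. UMIs were clustered in barcodes: 23 of the 226 C1q+ barcodes held 56.4% of the Csf2rb2 UMIs of that class. By library, the share in the arrays of Whole 1 was 20.8%, 18.4% and 16.8% in neutrophil-like against 29.8%, 26.3% and 29.2% in cavity macrophage-like barcodes, with intervals that overlap in the first array only. In Border 2 the share was 16.9% in neutrophil-like and 29.5% in C1q+ barcodes, and the intervals do not overlap. In the arrays of Whole 2 it was 17.6%, 14.3% and 12.9% against 25.6%, 16.9% and 22.0%, with overlapping intervals in each. Neutrophil-like barcodes of Border 1 had a share of 25.8% (23.3 to 28.4), within the range of the macrophage classes. A UMI of Csf2ra together with one of Csf2rb was seen in 441 of 1249 neutrophil-like (35.3%), 94 of 226 C1q+ (41.6%), 65 of 131 cavity (49.6%) and 48 of 96 alveolar barcodes, at depths that differ between these classes. In neutrophil-like barcodes the share was 42.3% in Tumor 1 and 25.7% in Tumor 2, at medians of 2493 and 1800 UMIs. The Border libraries went the other way, with 36.9% in Border 1 and 41.4% in Border 2. It was 42.9%, 46.7% and 47.4% in Whole 1 and 32.6%, 4.51% and 29.6% in Whole 2, where the second value is the shallow array.

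Csf3r was the receptor most closely held by 1 class. Neutrophil-like barcodes had 1186 CPM (1148 to 1225) and 79.4% of its 4665 UMIs, and 971 of 1249 were positive (77.7%, thinned 59.8%, against 0.833% and 0.245% in B-like barcodes). Cavity macrophage-like barcodes followed at 68.8 CPM, monocyte-like at 52.9 and C1q+ macrophage-like at 48.0 CPM, with overlapping intervals. B-like barcodes were positive for Csf3r in 1 of 15 in Tumor 1 and 0 of 105 in Tumor 2. A UMI of Csf3r together with one of Csf2rb was seen in 653 neutrophil-like barcodes (52.3%). The share was 61.9% in Tumor 1 and 39.0% in Tumor 2, with 15.0% in the shallow Whole 2 array 2. In the Whole arrays of Tumor 1, Csf3r was 830 ± 276 CPM (SD, n = 3 arrays) in the Retnlg Hdc type, 756 ± 96.2 CPM in the Siglec-F type and 931 ± 153 CPM where neither led, with overlapping ranges. Csf2rb was 2057 ± 333, 2097 ± 283 and 1697 ± 138 CPM, and the range where neither led (1602 to 1855 CPM) lies below that of the Siglec-F type (1886 to 2419 CPM). In Border 1 Csf3r was 1095 CPM in the Retnlg Hdc and 1045 CPM in the Siglec-F type, with overlapping intervals, while Csf2rb was 912 CPM (800 to 1035) and 1307 CPM (1191 to 1432). Csf3r lies at chr4:126024550-126044440 on the plus strand.

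Flt3 marked the dendritic classes. It stood at 611 CPM (412 to 872) in plasmacytoid dendritic-like, 511 CPM (398 to 647) in Ccr7+ dendritic-like and 194 CPM (96.8 to 347) in conventional dendritic-like barcodes, and these classes hold 10, 30 and 10 barcodes. The first pair have overlapping intervals. Positive were 8 of 10, 17 of 30 and 7 of 10 barcodes, at medians of 3683.5, 4056.5 and 5203.5 UMIs, against 2 of 1249 neutrophil-like barcodes (0.160%, at a median of 2206 UMIs). The Ccr7+ class had 10, 18 and 12 UMIs in the arrays of Whole 1, 13 in Border 2 and 3, 0 and 13 in the arrays of Whole 2, but all 13 of Border 2 came from 1 of its 5 barcodes. Flt3 lies at chr5:147330741-147400489 and overlaps the antisense gene Gm26597 over 936 bases.

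**Figure D2:**
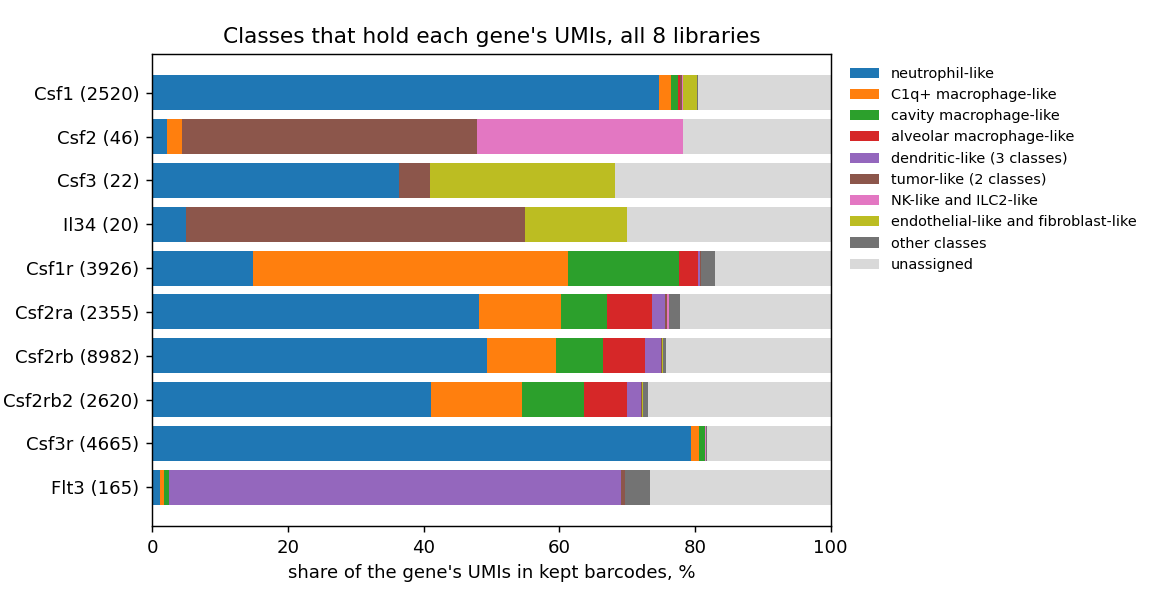
Share of the UMIs of each of the 10 genes (rows) held by each class or group of classes, in percent, as stacked bars that add up to 100% with the unassigned barcodes. The neutrophil-like part takes 74.7% of Csf1 and 79.4% of Csf3r but 14.8% of Csf1r, while Csf2 is held mostly by Krt+ tumor-like and ILC2-like barcodes.

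Neutrophil-like barcodes by library. The neutrophil-like class had at least 87 barcodes in every library, so that the 6 genes with enough UMIs could be compared between Border and Whole and between tumors. Csf1 was 639 CPM in Border 1, 910, 734 and 787 in Whole 1, 642 in Border 2 and 276, 381 and 242 in Whole 2. By CPM the arrays of Whole 2 were the lowest, below all 5 other libraries. The thinned share of positive barcodes was 29.6% in Border 1, 32.9% to 36.8% in Whole 1, 31.8% in Border 2 and 13.3%, 34.9% and 13.9% in Whole 2, where the second value is the shallow array with only 18 barcodes deep enough. Both Border libraries were at about the same CPM, below the Whole arrays of Tumor 1 and above those of Tumor 2.

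Csf2rb was 1126 CPM in Border 1, 1827, 2272 and 1945 in Whole 1, 1656 in Border 2 and 482, 653 and 572 in Whole 2. Csf2rb2 was 391, then 480, 513 and 392, then 337, and then 103, 109 and 85.0 CPM in the same libraries. For both beta chains the arrays of Whole 2 were apart from, and below, every other library. Csf2ra was 301 CPM in Border 1, 313, 330 and 310 in Whole 1, 542 in Border 2 and 580, 250 and 435 in Whole 2, and here the shallow array of Tumor 2 fell below all of Tumor 1.

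Csf3r was 1057 CPM in Border 1, 782, 898 and 722 in Whole 1, 1120 in Border 2 and 1692, 2231 and 1922 in Whole 2. The arrays of Whole 2, which were lowest for the beta chains, were highest here, those of Whole 1 were lowest and both Border libraries were in between. Csf1r was 61.2 CPM in Border 1, 270, 292 and 237 in Whole 1, 105 in Border 2 and 261, 142 and 164 in Whole 2. Both Border libraries were below every Whole array. The thinned share of Csf1r-positive barcodes was 5.5% in Border 1, 16.2% to 20.03% in Whole 1, 8.8% in Border 2 and 3.9% to 22.7% in Whole 2, where the shallow array was the lowest and fell below both Border libraries.

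**Figure D3:**
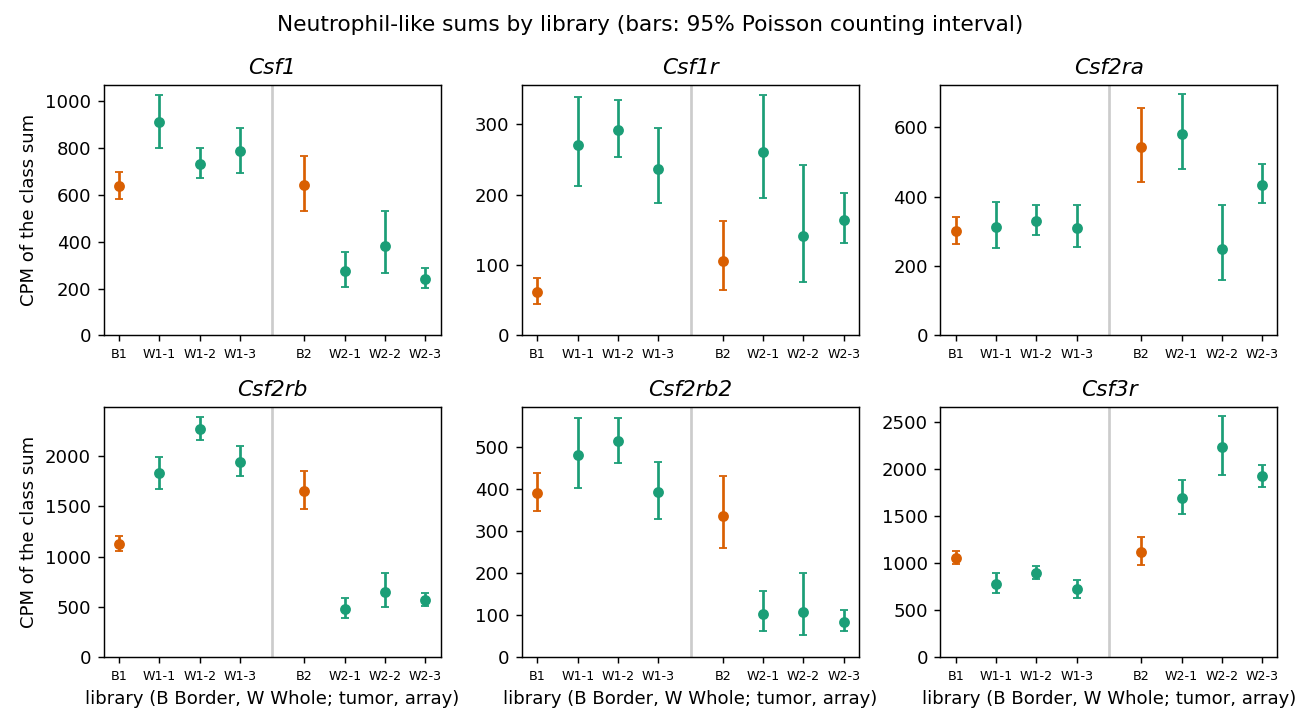
Level of 6 genes in neutrophil-like barcodes in each of the 8 libraries, in CPM, with exact 95% Poisson intervals as bars, 1 panel per gene (orange Border, green Whole). The Whole 2 arrays are highest for Csf3r (1692 to 2231 CPM) and lowest for Csf2rb (482 to 653 CPM), and both Border libraries are lowest for Csf1r (61.2 and 105 CPM).

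Tests of these sums used edgeR's quasi-likelihood test over all genes, with 8 libraries and 1 mean for each tumor and region. Each Border group is a single library that is assumed to vary like the arrays. In Tumor 1, 10.0% of 5859 genes were called between Border and Whole (8.02% higher and 2.01% lower in the Border), and 2 of the 6 genes tested here were. Csf1r fell by 1.60 ± 0.35 (SE) on the log2 scale in the Border (edgeR adjusted p = 0.000588), and Csf3r rose by 0.92 ± 0.27 (adjusted p = 0.0128). The Csf3r call rests on Whole 1 array 3, since without it the adjusted p is 0.0533, and it is also lost under library totals, where the log2 change is 0.40 (adjusted p = 0.209), among other alternatives. The call is kept in 12 of 16 of them. Csf1, Csf2ra, Csf2rb and Csf2rb2 had log2 differences of 0.19, 0.44, -0.31 and 0.28 and were not called. Under library totals these were -0.34, -0.083, -0.84 and -0.24, so that Csf1, Csf2ra and Csf2rb2 changed sign, and Csf2rb was called (adjusted p = 0.0127). That scaling moves all genes alike. Relative to the median of all genes, they stood at 0.246, 0.506, -0.254 and 0.345 in the main fit. Under library totals they stood at 0.249, 0.504, -0.256 and 0.343.

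In Tumor 2, 8.99% of the genes were called between Border and Whole (3.60% higher and 5.39% lower in the Border), and 4 of the 6. Csf2rb rose by 1.15 ± 0.28 (edgeR adjusted p = 0.00301) and Csf2rb2 by 1.40 ± 0.36 (adjusted p = 0.00467) in the Border, while Csf3r fell by 1.18 ± 0.31 (adjusted p = 0.00554) and Csf1r fell by 1.28 ± 0.43 (adjusted p = 0.0407). The Csf1r call is lost without Whole 2 array 1 and under library totals (-0.86, edgeR adjusted p = 0.161), among other alternatives. It is kept in 10 of 16 of them. Csf1 was 0.77 ± 0.31 higher, which missed the threshold (adjusted p = 0.108), and Csf2ra was at -0.12. Under library totals Csf1 was at 1.18 and called (edgeR adjusted p = 0.0026), and Csf2ra was at 0.30. Without a filter on low counts, which raises the number of genes tested, none of Csf2rb, Csf2rb2, Csf3r and Csf1r passed. The edgeR adjusted p-values were 0.108 for Csf2rb, 0.0943 for Csf2rb2 and 0.107 for Csf3r.

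The Border effects, meaning the Border over Whole changes with location, light and sorting together, differed between the tumors for 2 genes. Of all genes tested, 12.2% did (3.91% positive and 8.26% negative). The difference, Tumor 2 minus Tumor 1, was 1.47 ± 0.40 on the log2 scale for Csf2rb (edgeR adjusted p = 0.00745) and -2.10 ± 0.41 for Csf3r (adjusted p = 6.83e-05). Under library totals Csf2rb was at 2.40 and Csf3r at -1.18, both still called (edgeR adjusted p = 7.87e-07 and 0.0103). Csf1 was at 0.58 and not called, but at 1.52 and called under library totals (adjusted p = 0.00289). Without the filter on low counts the Csf2rb difference is 1.33 and not called (edgeR adjusted p = 0.237). For Csf2rb2 it was 1.11 ± 0.46 and missed the threshold (adjusted p = 0.0983), but it was called under library totals (2.07, adjusted p = 0.000305), with DESeq2 size factors (1.23, adjusted p = 0.0489) and with the looser gate (1.41, adjusted p = 0.0269). For Csf1r, which was lower in the Border of both tumors, it was 0.32 ± 0.56 (adjusted p = 0.773).

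Between the Whole arrays of the tumors, where 47.5% of all genes were called (23.9% higher and 23.6% lower in Tumor 2), 5 of the 6 genes were. In Tumor 2, Csf3r rose by 2.10 ± 0.21 (edgeR adjusted p = 3.02e-15), which is 4.30-fold, and Csf2ra by 1.32 ± 0.23 (adjusted p = 8.29e-07). Csf2rb2 fell by 1.42 ± 0.26 (adjusted p = 2.66e-06), Csf2rb fell by 0.99 ± 0.21 (adjusted p = 4.36e-05) and Csf1 fell by 0.66 ± 0.22 (adjusted p = 0.0109). The Csf1 call is lost when Whole 1 array 1, Whole 2 array 1 or Whole 2 array 3 is left out, among other alternatives. It is kept in 14 of 18 of them. Under library totals these values were 1.27 for Csf3r, 0.46 for Csf2ra (adjusted p = 0.0423), -2.29 for Csf2rb2, -1.84 for Csf2rb and -1.51 for Csf1, each called in the same direction. This comparison shares its arrays with both Border comparisons, so the values are not independent of them.

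**Figure D4:**
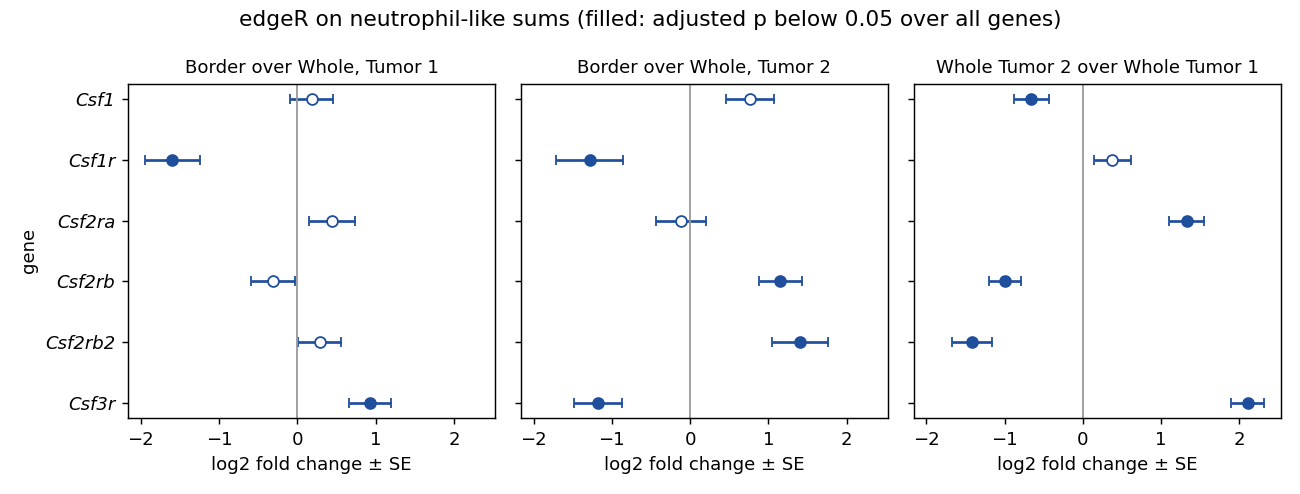
Log2 changes of 6 genes in neutrophil-like sums, with SE bars, for Border over Whole in Tumor 1, the same in Tumor 2, and Whole Tumor 2 over Whole Tumor 1, with filled points for calls at an edgeR adjusted p below 0.05. Csf3r is at 0.92 and -1.18 in the Border of the tumors and at 2.10 between them, and Csf2rb at -0.31, 1.15 and -0.99.

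The scaling of the libraries matters in these comparisons. TMM scaling, used above, put the median of all genes at -0.06 in the Border of Tumor 1, 0.05 in that of Tumor 2 and -0.26 between the Whole arrays, whereas scaling to library totals put it at -0.59, 0.48 and -1.14. In Tumor 1, 470 genes were called higher and 118 lower with TMM, and 192 and 834 with library totals. In Tumor 2 these were 211 and 316 against 553 and 168, for the difference 229 and 484 against 1103 and 193, and between the Whole arrays 1398 and 1384 against 693 and 3333. As an example of the changes relative to those medians, between the Whole arrays, Csf3r stood 2.37 above the median with TMM and 2.41 with library totals, and Csf1 stood at -0.40 and -0.37.

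The makeup of the class moved with these comparisons. The Retnlg Hdc type was 39.2% of neutrophil-like barcodes in Border 1, 20.95%, 15.7% and 20.7% in Whole 1, 72.4% in Border 2 and 91.0%, 94.7% and 92.6% in Whole 2. These shares depend on the gate, which uses no Siglec-F type marker but shares Retnlg, Hdc and Il1r2 with the Retnlg Hdc type list. When only barcodes of that type were summed, a choice made after the data were seen, Csf2rb was still higher in the Border of Tumor 2 by 1.26 and called, while Csf2rb2 was at 1.23 (edgeR adjusted p = 0.1302), Csf3r at -1.01 (adjusted p = 0.148) and Csf1r at -1.04 (adjusted p = 0.287) and were not. In Tumor 1, Csf1r was at -1.40 (adjusted p = 0.195) and Csf3r at 0.80 (adjusted p = 0.347), with 59 of the genes tested called in all. Between the Whole arrays the same 5 genes were called within the type, Csf3r higher by 1.73 and Csf2rb, Csf2rb2 and Csf1 at -1.48, -2.05 and -1.84.

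Markers of the C1q+ class were nearly absent from the neutrophil-like sums, while the sum of the cavity markers was high through a single gene, Thbs1. The gate, which asks for a lead of at least 2 over every other list, itself limits how many such markers a barcode can show. The 10 markers of the C1q+ class added up to 0.242 per 10000 UMIs in Border 1, 0.627 to 1.35 in Whole 1, 1.95 in Border 2 and 0.871 to 1.18 in Whole 2, against 183 to 448 in the C1q+ class itself. Of the 10, between 2 and 8 were detected per library, and Apoe made up 47.4% to 97.4% of the sum. Aif1 was at 0 in all 8 libraries, and C1qa, C1qb and C1qc were all at 0 in Border 1, Whole 1 array 1 and Whole 2 array 2. This sum was lower in the Border, as Csf1r was, in Tumor 1 but not in Tumor 2, and its part in the Csf1r values was not tested. The 10 markers of the cavity class added up to 38.6 per 10000 UMIs in Border 1, 28.7 to 36.5 in Whole 1, 60.8 in Border 2 and 124 to 166 in Whole 2, against 31.7 to 147 in C1q+ sums. Thbs1 made up 86.7% to 99.7% of this sum, and Marco was at 0 in every library but Whole 1 array 1. In Whole 2 array 2 only 2 of the 10 cavity markers, Thbs1 and F10, were detected. Markers of the alveolar class added up to 0.526 to 2.31 and those of the monocyte-like class to 0.229 to 2.503 per 10000. Markers of the Ccr7+ dendritic-like class, in which Csf2rb is high, were at 2.16 per 10000 in Border 2 against 0.344, 0.218 and 0.132 in Whole 2, and at 0.0712 to 0.146 in Tumor 1. The 10 markers of the neutrophil-like class itself were at 114 per 10000 in Border 1, 132, 109 and 125 in Whole 1, 155 in Border 2 and 313, 294 and 290 in Whole 2. Between the Whole arrays of the tumors, and in the Border of Tumor 2, this sum moved the same way as Csf3r and as the cavity sum, which is mostly Thbs1. In Tumor 1 the Border lies within the range of the Whole arrays, while its Csf3r was higher. Retnlg, Hdc and Il1r2 are in both the neutrophil-like list and that of the Retnlg Hdc type, so this sum and the makeup are not independent. The part of these lists in the results was not tested.

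Neutrophil-like and C1q+ macrophage-like barcodes of the same libraries. In the 5 libraries with at least 10 barcodes of both classes, 42.7% of 4418 genes differed between them (20.3% higher and 22.5% lower in neutrophil-like sums), and 4 of the 6 genes did. Csf3r was higher in neutrophil-like sums by 5.12 ± 0.40 on the log2 scale (edgeR adjusted p = 3.3e-08). Csf1r was at -2.94 ± 0.35 (adjusted p = 2.82e-06), that is 7.67-fold higher in the C1q+ class. Csf1 was also called, at 4.62, but this is no exact size and is not read as a test. In the C1q+ class, 0, 0 and 1 barcodes of the Whole 2 arrays had a Csf1 UMI. In the fit of that class alone, Csf1 did not pass the filter on low counts. Its value ran from 4.37 to 5.69 over the alternatives. Between these classes, Csf1 and its receptor stood higher in opposite ones. Csf2ra was higher in neutrophil-like sums by 0.99 ± 0.34 (adjusted p = 0.0256), a call that is lost when Border 2, Whole 2 array 1 or Whole 2 array 3 is left out. Csf2rb (0.10 ± 0.36) and Csf2rb2 (-0.65 ± 0.34) were not called, although Csf2rb2 is at -1.07 and called without Border 2. Neutrophil-like barcodes with both Csf1 and Csf1r numbered 109 of 1249 (8.73%). The share was 4.78% in Border 1, 16.2%, 19.0% and 18.1% in Whole 1, 4.598% in Border 2 and 5.62%, 0.752% and 3.24% in Whole 2.

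**Figure D5:**
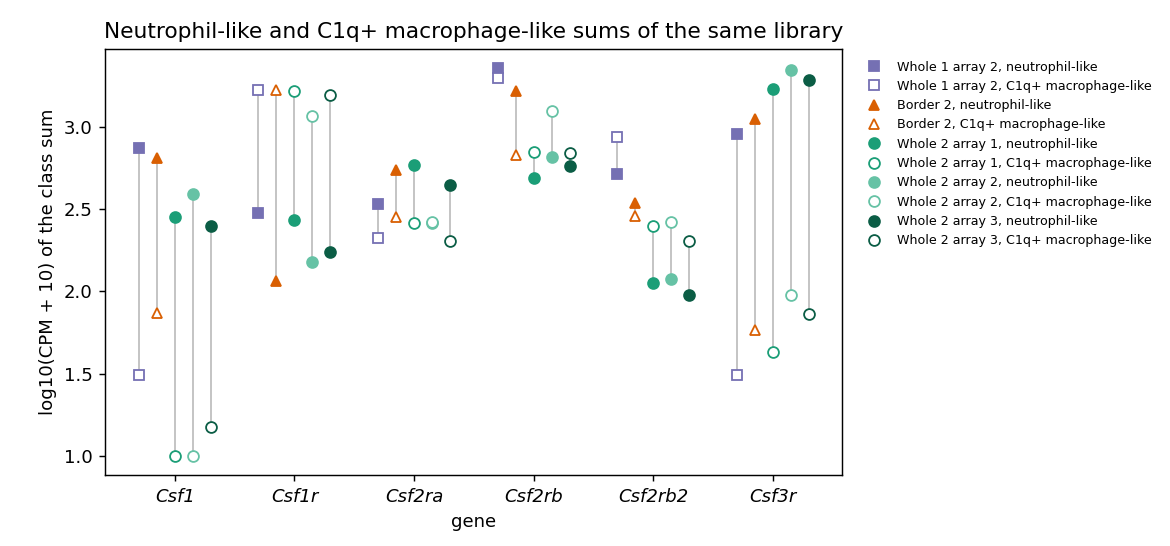
Levels of 6 genes in neutrophil-like and C1q+ macrophage-like sums of the same 5 libraries, as log10(CPM + 10), with filled points for the neutrophil-like and open points for the C1q+ class and a line joining the classes of each library. Csf1 and Csf3r are higher in the neutrophil-like class and Csf1r in the C1q+ class in every one of the 5 libraries.

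Within the C1q+ class, Border 2 could be set against the 3 Whole arrays of Tumor 2. Of 3202 genes, 0.562% were called, 0.312% higher and 0.250% lower in the Border (18 genes, 4 with DESeq2, and 262 at an unadjusted p below 0.05), and of the 5 genes tested here none was. Csf1r was 1677 CPM in the Border and 1463 ± 264 CPM (SD, n = 3) in the Whole arrays, a log2 difference of 0.09 ± 0.36. Csf2rb was 665 CPM against 879 ± 319, a difference of -0.47 ± 0.42. In Tumor 1 only Whole 1 array 2 had 10 of these barcodes, with 1993 CPM of Csf2rb and 859 CPM of Csf2rb2, above the 665 to 1247 and 194 to 279 CPM of the 4 libraries of Tumor 2.

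Genes of the same signaling pathways. A list of 35 other genes, from ligands and kinases to STAT targets and myeloid transcription factors, was read in the same fits. In neutrophil-like sums 23 of them were tested. In the Border of Tumor 1, 4 rose and 1 fell (10.0% of all genes were called, 8.02% higher and 2.01% lower): the anti-apoptotic gene Mcl1 by 1.30, the cytokine feedback inhibitor Socs3 by 1.02, the transcription factor gene Cebpb by 0.83 and the kinase gene Pim1 by 0.82, while the phosphatase gene Ptpn6 fell by 0.89. The list's median was 0.06, against -0.06 over all genes. Under library totals only Mcl1 was still called higher (0.77), with 2 lower. The count of 5 falls to 1 without Whole 1 array 3, to 3 without Whole 1 array 2, Whole 2 array 1 or with DESeq2, to 2 without Border 2 or without the low-count filter, and to 0 in the Retnlg Hdc type.

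In the Border of Tumor 2, none rose and 7 fell, against 8.99% of all genes called (5.39% lower). Socs3 fell by 1.196, Pim1 fell by 1.30, Mcl1 fell by 1.00 and Cebpb fell by 0.96, and among the others were the Src family kinase gene Lyn (-1.35) and the transcription factor gene Spi1 (-1.65). The median of the list was -0.36, against 0.05 over all genes, and under library totals 3 were lower and 2 higher. The count of 7 falls to 1 without the low-count filter and to 3 in the Retnlg Hdc type. The difference between the tumors was itself called for 7 of the 23, all negative, against 12.2% of all genes (8.26% negative), among them Mcl1 (-2.30, edgeR adjusted p = 8.01e-06), Socs3 (-2.21), Pim1 (-2.13) and Cebpb (-1.79). Under library totals 3 were called lower, Mcl1, Pim1 and Socs3, and 3 higher. The 7 become 4 without the low-count filter and 3 in the Retnlg Hdc type.

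Between the Whole arrays, 14 of the 23 rose and 3 fell in Tumor 2, where 47.5% of all genes were called (23.9% higher and 23.6% lower), with a median of 0.82 against -0.26 over all genes. Cebpb rose by 2.66, Pim1 by 2.62, Socs3 by 1.79 and Mcl1 by 1.57. Kit fell by 2.69, Cish, an inhibitor induced through STAT5, fell by 1.96, and the adaptor gene Shc1 fell by 1.71. Under library totals 8 were higher and 9 lower, and those named here were called in the same direction. Against the C1q+ class, 24 were tested, and 13 were higher in neutrophil-like sums (Pim1 by 2.36) and 3 lower, namely Kitl (-6.80), Irf8 (-4.55) and Cebpa (-4.36), with a median of 0.89 against -0.07. Of all genes 42.7% were called there (20.3% higher and 22.5% lower). The count of 16 falls to 7 (5 higher) without Whole 2 array 3, to 9 (6 higher) without Whole 2 array 2 and to 10 (7 higher) without Whole 2 array 1.

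Genes with the most similar pattern over the 14 classes of at least 20 barcodes were ranked by Pearson's r of log2(CPM + 10) among 8135 genes. These values only describe the classes, which share libraries. Upp1 (r = 0.82) and Mtus1 (0.82) came first for Csf1, Clec4a2 (0.96) and Slc11a1 (0.95) for Csf1r, Clec4n (0.96 with both) for Csf2rb and Csf2rb2, Soat2 (0.97) for Csf3r and Slc4a8 (0.90) for Flt3.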

How the data were processed

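The authors made the Seq-Well libraries, ran bcl2fastq 2.17.1.14 and STAR 2.5.2b (submitters' processing notes), following the Drop-seq protocol on mm10, and deposited raw UMI counts per gene and cell barcode for each of the 8 arrays. Here, barcodes with at least 200 genes were kept (3894 of 4343), and no doublet filter was applied: Scrublet (scanpy 1.11.5) called 57 of them (1.46%). Barcode sequences shared between libraries numbered 10, all like the primer, in 56 kept barcodes.

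A barcode took the class whose list of up to 10 markers had at least 3 detected and led every other list by at least 2. The 1659 others (42.6%) stayed unassigned. These gate numbers were set after the levels of the 10 genes under 3 candidate gates had been seen. The genes and all lists were chosen with earlier results of these data known, and all 10 genes are named whatever their values. Other genes come from a fixed pathway list.

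UMIs were summed per library and class (at least 10 barcodes) and tested with edgeR 4.0.16 in R 4.3.3 (filterByExpr, TMM, quasi-likelihood test, Benjamini-Hochberg adjustment over all genes, threshold 0.05). The 8-library fit leaves 4 residual degrees of freedom. Shares have exact Clopper-Pearson intervals (scipy 1.17.1), and a count of 0 allows up to 3 counts. Alternatives were library totals, DESeq2 size factors, DESeq2 1.42.0, no low-count filter, all deposited barcodes, no doublets, a looser gate (at least 2 markers, a lead of 1), each library left out and, added after the data were seen, no primer-like barcodes and the Retnlg Hdc type alone. Gene positions and sequences are from the GENCODE annotation and transcripts for GRCm38. Human organoid samples were not analysed here. An allele of the mice, a member of the pathway list and the gene most like Csf2ra are not reported here.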

Additional observations from a re-analysis of the deposited data

Results flagged for a closer look

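The change at the Border of neutrophil-like barcodes differed between the tumors for a pair of the genes, by the interaction test of edgeR. For Csf2rb the difference of the Border effects, Tumor 2 minus Tumor 1, was 1.47 on the log2 scale (adjusted p = 0.00745), which is not called without the filter on low counts (adjusted p = 0.237). For Csf3r it was -2.10 (adjusted p = 6.83e-05). Under library totals Csf2rb was at 2.40 and Csf3r at -1.18, both still called. Each tumor is 1 mouse with 1 Border library, and the makeup of the neutrophil-like class differed between the same libraries. Its part in these differences was not tested beyond the Retnlg Hdc type alone, where Csf2rb was at 1.98 and called and Csf3r at -1.81 (adjusted p = 0.0536).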

How the results depend on the processing

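Scaling to library totals moved the number of genes called at the Border of Tumor 1 from 588 to 1026 and for the difference between the tumors from 713 to 1296. With DESeq2 these were 273 and 337, at the Border of Tumor 2 295 (from 527) and in the C1q+ class 4 (from 18), where the looser gate gave 35. Without the low-count filter 336, 230 and 366 genes were called in Tumor 1, Tumor 2 and for the difference. With the Retnlg Hdc type alone these were 59, 122 and 130, and between the Whole arrays 921 (from 2782). Leaving out 1 library gave 429 to 667, 323 to 603, 519 to 830 and 1767 to 2741 genes in these comparisons, 14 to 47 in the C1q+ class and 1118 to 1994 between the classes.

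Of the 522 values of single genes, 476 kept their direction and call, 25 lost and 8 gained the call and 13 changed sign, none of the latter a called value. Under library totals Csf1, Csf2ra and Csf2rb2 were at -0.34, -0.083 and -0.24 at the Border of Tumor 1, Csf2ra at 0.30 in Tumor 2 and 0.38 for the difference, Csf1r at -0.49 between the Whole arrays and Csf2rb at -0.036 between the classes. Csf2ra at the Border of Tumor 2 was at 0.016 with the looser gate, 0.11 without Whole 2 array 1 and 0.14 in the Retnlg Hdc type, in which Csf1 was at -0.30 in Tumor 1. With 1 library left out, Csf1r in the C1q+ class ran from -0.033 (without Whole 2 array 2) to 0.23, and Csf2rb between the classes from -0.36 (without Border 2) to 0.31. Gained calls include, under library totals, Csf2rb at the Border of Tumor 1 (-0.84), Csf1 at that of Tumor 2, and Csf1 (1.52) and Csf2rb2 (2.07) for the difference. Relative to the median of all genes, the values under library totals were about those with TMM. At the Border of Tumor 1 these were 0.249 and 0.246 for Csf1 and -0.256 and -0.254 for Csf2rb, and for the difference 1.02 and 1.02 for Csf2rb2. The cause of the changes under the other alternatives was not tested.

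The looser gate put 84.3% of Csf1, 55.7% of Csf2ra, 55.9% of Csf2rb, 48.2% of Csf2rb2 and 87.6% of Csf3r UMIs in neutrophil-like and 50.2% of Csf1r in C1q+ barcodes. Leaving out 1 library gave 73.5% to 75.8%, 44.9% to 53.5%, 44.5% to 52.9%, 34.7% to 45.5%, 74.9% to 82.3% and, for Csf1r, 27.3% (without Border 2) to 52.5%. For Flt3 in Ccr7+ dendritic-like barcodes it gave 34.9% to 47.5%.

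With the array number as a replicate block, 2287 genes were called between the Whole arrays, and every call of the 6 genes was the same. Deviations of same-numbered arrays correlated at -0.0158, -0.000287 and -0.0152, so the numbers are not a pairing, and no array correlated best with its own number.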
